A study of Drosophila melanogaster with 3 samples.

Results

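The regions described here are the anti-GFP ChIP-seq peaks of tagged net whose summit lay in an intron, 501 to 5000 bp from the nearest transcription start site (TSS). A summit, the point of highest enrichment within a peak, qualified when it fell inside a gene and in no exon of any transcript. Summits within 500 bp of a TSS were counted as promoter peaks even where they were intronic. Of the 7571 peaks in the list thresholded by the irreproducible discovery rate (IDR), 2162 (28.6%) met this rule. The rule used only position, so signal, replicate recovery and sequence played no part in the choice.

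The animals were whole *Drosophila melanogaster* prepupae of both sexes, of unknown age, from 1 transgenic line with GFP fused to the C-terminal end of net. All libraries belong to a single group and are numbered 1, 3 and 4 as biological replicates. The labels describe an insertion aimed at net and do not say whether an untagged copy of net was also present. No control library was analysed here, so the part that any GFP precipitation contributes to a peak was not tested. Whole animals were used, and occupancy in few cells cannot be told apart from weak occupancy in many. Labels name no tissue, and the tissue in which a peak was occupied is unknown.

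The protein net belongs to the basic helix-loop-helix (bHLH) family of DNA-binding proteins. Its members bind as dimers to E-boxes, short sites that read CANNTG, where N is any base. The gene net is known from the wing, where it keeps veins from forming between the normal veins. Introns of fly genes, and first introns in particular, often contain enhancers, which are stretches of DNA that control transcription from a distance.

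Sequences at the summits of 6 of the 8 strongest of these peaks show what the tagged protein's strongest intronic signal lay over. Each run is the 101 bases centred on the summit, 5′ to 3′ on the plus strand of dm6, read from the reference genome. Capitals would mark a CANNTG match, and none of these 6 windows had one.
ush, chr2L:481007-481107: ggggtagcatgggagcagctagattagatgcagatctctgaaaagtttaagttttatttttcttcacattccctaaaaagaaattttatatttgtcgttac
CG11050, chr2L:6612677-6612777: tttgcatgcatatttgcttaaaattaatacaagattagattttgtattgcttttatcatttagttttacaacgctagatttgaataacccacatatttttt
CG32772, chrX:4910350-4910450: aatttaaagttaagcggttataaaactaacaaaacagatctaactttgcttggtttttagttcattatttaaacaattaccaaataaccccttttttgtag
CG4496, chr2L:7188566-7188666: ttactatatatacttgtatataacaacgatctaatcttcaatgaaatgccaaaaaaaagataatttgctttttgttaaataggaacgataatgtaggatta
Lk6, chr3R:11761007-11761107: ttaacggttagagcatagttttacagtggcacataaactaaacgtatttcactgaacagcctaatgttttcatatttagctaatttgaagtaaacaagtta
Trl, chr3L:14759483-14759583: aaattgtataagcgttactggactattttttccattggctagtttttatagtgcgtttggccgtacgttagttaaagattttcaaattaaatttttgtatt

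Peaks that did have an E-box at the summit are shown next, 1 for each of 4 cores, taken from the strongest peaks with that core. Capitals mark the core, which is CATATG in upSET, CAGCTG in Reph and CACGTG in CG31523. In CG32264 the core CACCTG was on the minus strand, so the plus strand reads CAGGTG.
upSET, chr3L:14005034-14005134: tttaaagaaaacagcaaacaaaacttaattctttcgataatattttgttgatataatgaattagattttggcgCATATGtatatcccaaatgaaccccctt
Reph, chr2L:3804706-3804806: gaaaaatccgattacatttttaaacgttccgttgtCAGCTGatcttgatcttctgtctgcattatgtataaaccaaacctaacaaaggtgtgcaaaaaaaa
CG31523, chr3R:4478291-4478391: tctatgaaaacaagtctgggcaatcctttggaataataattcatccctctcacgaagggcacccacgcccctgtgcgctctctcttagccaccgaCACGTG
CG32264, chr3L:3785169-3785269: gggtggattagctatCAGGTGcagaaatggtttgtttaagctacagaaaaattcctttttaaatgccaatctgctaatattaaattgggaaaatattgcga

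A further 4 windows carry a pair of six-letter words that were more frequent at these summits than in other intron sequence of the same kind. The words were chosen after their frequencies were seen. Capitals mark ACAGTG or its reverse complement CACTGT in the windows of CG17834 and schlank, and ATCTTA or its reverse complement TAAGAT in the other two.
CG17834, chr2L:8534847-8534947: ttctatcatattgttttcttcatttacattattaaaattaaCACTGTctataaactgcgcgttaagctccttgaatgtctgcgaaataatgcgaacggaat
schlank, chrX:6265573-6265673: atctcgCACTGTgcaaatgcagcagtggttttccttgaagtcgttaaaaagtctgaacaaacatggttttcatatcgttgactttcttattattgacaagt
CG3726, chrX:5918847-5918947: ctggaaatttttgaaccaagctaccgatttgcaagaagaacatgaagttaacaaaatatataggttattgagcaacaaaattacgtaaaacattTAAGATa
CG9837, chr3R:8811625-8811725: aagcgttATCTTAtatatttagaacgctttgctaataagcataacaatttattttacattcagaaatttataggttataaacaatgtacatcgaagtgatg

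These peaks made up more of the list than introns of this kind make up of the genome. Intron sequence 501 to 5000 bp from a TSS, called qualifying sequence below, covered 24.5 Mb, or 17.8% of genome bases, and held 28.6% of the peaks (exact 95% interval 27.5 to 29.6%, counting error only). The ratio of the peak share to the genome share was 1.61. Among the 7571 strongest peaks of each library, the class took 27.7% in replicate 1, 27.6% in replicate 3 and 29.4% in replicate 4 (28.2% ± 1.02, SD, n = 3). The libraries differed from each other by less than the class differed from its share of the genome. There were 88.4 of these peaks per Mb of qualifying sequence. Introns further than 5000 bp from any TSS held 41.8 peaks per Mb, and promoters held 154 per Mb. The 22429 weaker peaks of the pooled list, outside the IDR list, fell in the class at 27.6%, so the share changed little with peak strength.

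**Figure D1:**
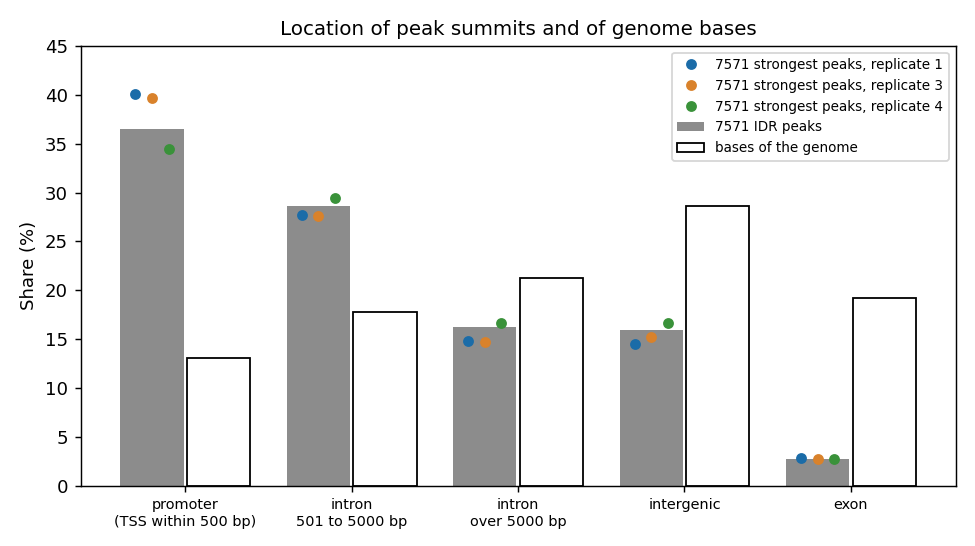
Share of peaks (grey bars, 7571 IDR peaks), of the 7571 strongest peaks of each library (coloured points) and of genome bases (open bars) in 5 location classes. Introns 501 to 5000 bp from a TSS hold 28.6% of peaks against 17.8% of bases, and replicate 4 has the lowest promoter share, 34.5%.

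Replicate 4 stood apart from the other two libraries in where its strongest peaks lay. Its promoter share was 34.5%, against 40.1% in replicate 1 and 39.7% in replicate 3, and its intronic shares were the highest of the 3. The depth of the libraries is unknown because the files hold no read counts, and each relaxed list was cut at 30000 peaks.

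In signal, the authors' own enrichment value per peak, the intronic peaks covered nearly the range of the whole list. Their signal ran from 134 to 3538, with a median of 229 and quartiles of 169 and 358. The median was 241 for promoter peaks, 207 for introns beyond 5000 bp and 225 for all peaks. Of the 25 strongest peaks in the list 7 were of this class, and 276 of the 1000 strongest were. Of the class 50.7% stood above the median signal of the list, against 43.5% of the deeper intronic peaks. The median width was 460 bp and the median distance to the nearest TSS 1746 bp. After overlapping peaks were merged, 1994 separate regions remained.

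At the inner border the peaks just outside had the higher signals, and at the outer border the signals overlapped. The peaks just inside the inner border were in Gk2, 501 bp from a TSS with a signal of 198, and in CG33181, at 503 bp and 150. Just outside it were peaks in SREBP and cu, both at 499 bp, with signals of 799 and 303. At the outer border, peaks in CadN (4999 bp, signal 240) and p130CAS (4996 bp, 211) were inside, and peaks in chm (5004 bp, 298) and skd (5010 bp, 168) were outside. The weakest peak of the class, in Jhbp1, had a signal of 134, and the strongest pooled peak of the class that missed the IDR list, in CG14502, also had 134.

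Most of the intronic peaks were found again in single libraries. A peak was called recovered when 1 of the 7571 strongest summits of a library lay within 100 bp of its summit. Replicate 1 recovered 78.4% of the peaks, replicate 3 80.8% and replicate 4 82.1% (80.4% ± 1.85, SD, n = 3). All 3 libraries recovered 1278 peaks (59.1%, exact 95% interval 57 to 61.2%), where 56.8% of all peaks in the list passed the same rule, so this share was near the background. A pair of libraries recovered 543 peaks, a single library 297, and none recovered 44. Recovery followed signal. With the list split by signal into 4 equal parts, it was 98.4% ± 0.273 in the strongest part, 94.2% ± 0.323 in the next, 79.5% ± 4.93 in the one after and 48.8% ± 2.23 in the weakest (SD, n = 3). All libraries are part of the pooled list, so recovery is not an independent test of a peak.

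The intronic peaks near a TSS ranked above deeper intronic peaks in every library. Their median rank by signal was 3863 in replicate 1, 3837 in replicate 3 and 3537 in replicate 4, where rank 1 is the strongest. The deeper intronic peaks had median ranks of 4597, 4415 and 4071. The difference was -615 ± 105 ranks (SD, n = 3), in the same direction in 3 of 3 libraries, and the exact two-sided sign-flip permutation test over libraries gave p = 0.25, the smallest p that 3 libraries allow. This exact test cannot reach 0.05 with 3 libraries. Among peaks above the list's median signal the rank difference was -287. Recovery did not share the direction in every library: it exceeded that of deeper intronic peaks by 3.08 and 4.82 percentage points in replicates 1 and 3 and differed by -1.1 in replicate 4 (mean 2.27 ± 3.04, SD, n = 3, exact sign-flip p = 0.5). The difference in rank from intergenic peaks was -483 ± 24.4 ranks, also in 3 of 3 libraries (exact sign-flip p = 0.25). Against promoter peaks the libraries disagreed: the intronic peaks ranked 604 and 605 places lower in replicates 1 and 3, and the difference was -108 in replicate 4 (mean 367 ± 411, exact sign-flip p = 0.5). Recovery showed the same split, at -3.27 and -4.1 percentage points against promoters in replicates 1 and 3 and 5.59 in replicate 4 (exact sign-flip p = 1).

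Density fell with distance from the TSS and depended on which intron was hit. At 501 to 1000 bp there were 128 peaks per Mb of qualifying sequence (561 peaks, exact Poisson 95% interval 117 to 139), and at 4001 to 5000 bp there were 65.4 per Mb (228 peaks, 57.2 to 74.5). Between these, density was 97.4, 89.8, 77.1 and 71.8 per Mb in steps of increasing distance. In the strongest peaks of each library, the nearest bin held 126, 125 and 130 per Mb and the farthest 65.1, 59.7 and 69.7 in replicates 1, 3 and 4. The libraries' ranges did not overlap, and the difference was 62.1 ± 2.63 per Mb (SD, n = 3, higher near the TSS in 3 of 3 libraries, exact sign-flip p = 0.25). Median signal showed no such slope and stayed between 215 and 233 in all 6 distance bins. The number of peaks fell with distance while their median signal stayed level.

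First introns, meaning the first intron of at least 1 transcript, held 1638 of the 2162 peaks (75.8%) but 57.6% of the qualifying sequence. They held 116 peaks per Mb (exact Poisson 95% interval 111 to 122), and later introns held 50.5 (46.3 to 55). In the library lists the values were 112, 112 and 120 per Mb in first introns and 49.7, 49.5 and 51.3 in later ones (difference 64.6 ± 3.82, SD, n = 3, 3 of 3 libraries, exact sign-flip p = 0.25). Median signal was 231 in first and 223 in later introns. Intron order and distance overlap, since first introns start near a TSS, so density was also counted for both together. At 501 to 1000 bp first introns held 156 per Mb and later introns 63.2, and at 4001 to 5000 bp they held 89 and 43.9. First introns were denser in each of the 6 bins. Within first introns density fell step by step to 4001 to 5000 bp, while in later introns the bins past 1000 bp lay between 43.9 and 52.1 with overlapping intervals.

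**Figure D2:**
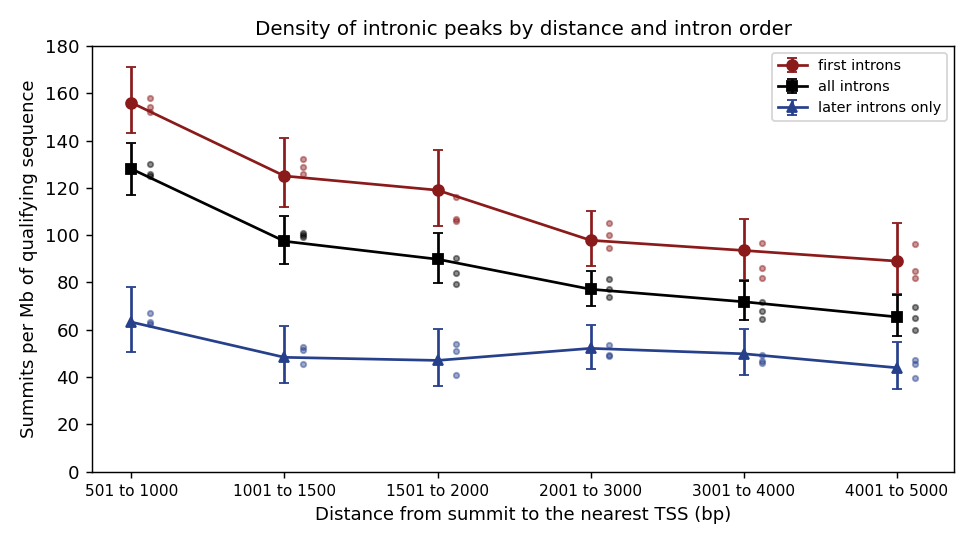
Peaks per Mb of qualifying intron sequence (y) in 6 bins of distance to the nearest TSS (x, bp), for first, later and all introns, with exact 95% Poisson intervals. Small points beside each marker are the 3 libraries, and in first introns the IDR list falls from 156 to 89 per Mb.

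GC content differed little between the 2 kinds of intron. Qualifying windows of 101 bp averaged 39.7% GC in first introns and 39.5% in later introns. The sides of the nearest TSS differed by less than the counting error. Of the peaks, 65.8% lay downstream, as did 65.6% of the qualifying bases (88.7 peaks per Mb downstream and 87.8 upstream). The library lists differed by 0.656 ± 0.975 per Mb (SD, n = 3), with 1 of 3 libraries in the opposite direction (exact sign-flip p = 0.5). Short uninterrupted intron stretches of up to 2 kb held 62.7 peaks per Mb, against 101 at 2 to 5 kb, 103 at 5 to 10 kb, 91.8 at 10 to 20 kb and 79.3 above 20 kb. Over the chromosome arms density ranged from 78.6 per Mb on 2L to 99.5 on X. On chromosome 4, which is largely heterochromatic, 2 peaks were found in 0.301 Mb, or 6.64 per Mb (exact Poisson 95% interval 0.804 to 24).

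Peaks of this class often accompanied a promoter peak at the same start site. Where the nearest TSS had an IDR peak within 500 bp, qualifying sequence held 170 intronic peaks per Mb (779 peaks, exact Poisson 95% interval 158 to 182), and elsewhere it held 69.6 (66 to 73.4). The library lists gave 167, 164 and 175 per Mb against 67, 67.2 and 71.6, a difference of 100 ± 3.1 (SD, n = 3, 3 of 3 libraries, exact sign-flip p = 0.25). This comparison was added with the data in view. The promoter peaks were those of the pooled IDR list for every library, so agreement among the libraries is not independent. Here density was not split by distance or intron order. The 779 peaks were 36% of the class, although 18.8% of the qualifying sequence had such a TSS nearest. The corresponding share was 33% for deeper intronic peaks and 23.6% for intergenic peaks, and 16.1% of all TSSs had a promoter peak. The share of bases with such a TSS nearest was not counted for deeper introns or intergenic sequence, so these shares do not rank the classes. The intronic peak was stronger than the promoter peak in 366 of the 779 pairs (47%), so neither site was regularly the stronger. Another IDR summit of any class lay within 1000 bp of 36.2% of the intronic peaks, and the median gap to the nearest other summit was 1549 bp.

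The strongest peak of the class lay in a first intron of ush, at chr2L:480557-481378, with a pooled signal of 3538. The gene ush encodes a zinc finger cofactor of GATA transcription factors that acts in blood cells and in the dorsal body wall. Its signal was 1016 in replicate 1, 1348 in replicate 3 and 1072 in replicate 4, where it ranked 1, 4 and 3. The nearest TSS was not that of ush but that of cbt, a zinc finger transcription factor gene, 1369 bp away. The next peak, in a later intron of CG11050 at chr2L:6612426-6612955, had signals of 903, 1210 and 990 in replicates 1, 3 and 4 and ranked 4, 5 and 6. The peak in CG32772 at chrX:4910004-4910791 ranked 12, 7 and 2, with a pooled signal of 2903. It was followed by CG4496 (2427) and by Lk6 (2274), whose product is a kinase that phosphorylates the translation factor eIF4E. Their library ranks were 13, 19 and 11 for CG4496 and 16, 15 and 23 for Lk6.

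Genes for chromatin proteins were among the next. The peak at HmgZ, at chr2R:21703129-21703693, also lay within HmgD. Both genes encode small chromosomal proteins with an HMG box, and the signal was 2228. Trl encodes GAGA factor, a DNA-binding protein that opens chromatin, and its peak at chr3L:14759268-14759755 had signals of 564, 739 and 723 (ranks 27, 34 and 20). The other peaks down to place 25 included for, a cGMP-dependent protein kinase gene linked to foraging behaviour (1410), NFAT, a transcription factor gene (1370), simj, which encodes a subunit of the NuRD chromatin remodelling complex (1360), upSET, which encodes a chromatin protein with a SET domain (1337), and neur, a ubiquitin ligase gene of the Notch pathway (1327). The last of the 25, at 1324, lay in lncRNA:CR45196 and also within pum, which encodes a repressor of translation.

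All 25 were recovered in all 3 libraries, and the lowest place any of them took in a library was 174. In 24 of the 25 the nearest TSS belonged to a gene that held the peak, and ush was the exception. A first intron held 22 of them. Their summit windows averaged 29.1% GC, and 23 of the 25 were below the mean of the class. Of the 276 peaks of the class among the 1000 strongest of the list, 268 (97.1%) were recovered in all 3 libraries. The other 8 were in Dhc64C, shn, Msp300, Ada2b, nkd, CG11357, chn and CG14441, named after their values were seen. Each was matched in 2 libraries at ranks between 301 and 1020 and had no summit within 100 bp in the remaining relaxed list. For 5 of these 8 that library was replicate 3.

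**Figure D3:**
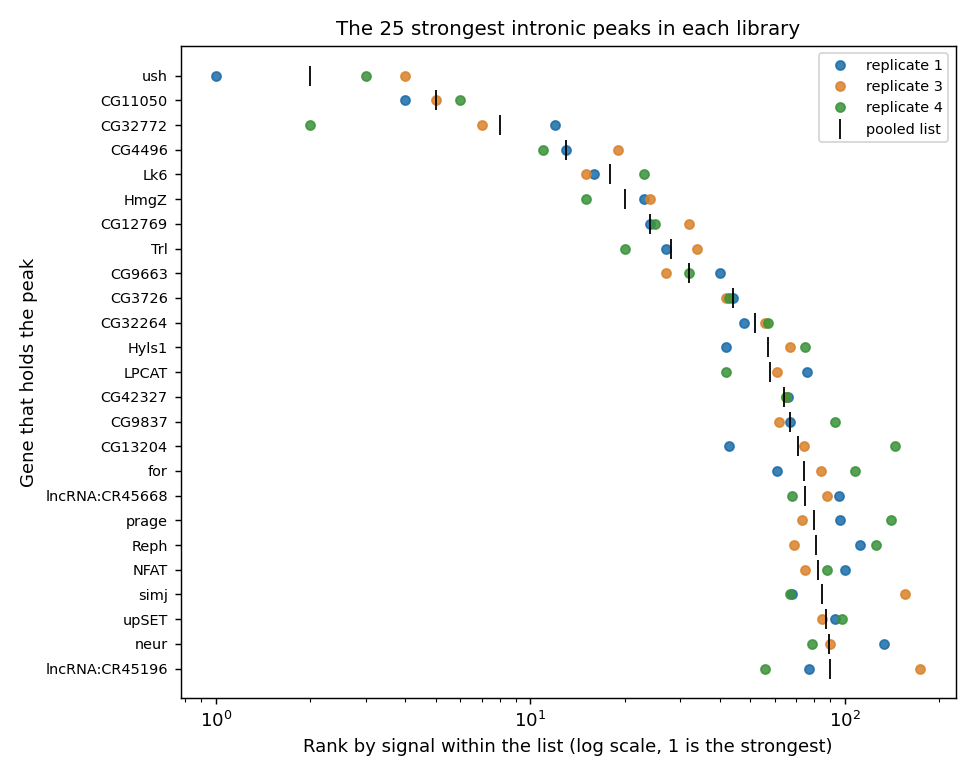
Rank by signal (log scale, 1 is the strongest) of the 25 strongest intronic peaks in replicates 1, 3 and 4 (points) and in the pooled list (bars). All points lie at rank 174 or better, and the ush peak ranks 1, 4 and 3.

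The 2162 peaks lay in 1160 genes, of which 1121 code for protein. For 2003 peaks (92.6%) the summit lay in a single gene, and the other 159 lay where genes overlap. Of the 1160 genes, 634 had 1 peak, 379 had 2 or 3, and 147 had 4 or more. The nearest TSS belonged to a gene holding the peak in 76.8% of cases and to another gene in 23.2%, and it belonged to a non-coding gene in 12.6%. Being inside a gene does not show that a peak acts on that gene.

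Some long genes held clusters of peaks. The most were in shn, with 16 peaks in 34.5 kb of qualifying sequence, or 4.63 per 10 kb. The gene shn encodes Schnurri, a zinc finger protein that works with Smad proteins in the response to Dpp. Its peaks numbered 16, 13 and 18 in the lists of replicates 1, 3 and 4. Next came CG1677 with 15 (2.58 per 10 kb). CG1677 lies wholly within lncRNA:CR44357, whose 15 peaks were the same ones, and the strongest of them lay within Dok as well. Tlk, which encodes Tousled-like kinase, had 14 peaks (4.05 per 10 kb). Svil, kirre, sbb and tou had 12 each, at 1.73, 1.12, 5.85 and 6.05 per 10 kb. Svil encodes an actin-associated protein of the villin family, kirre an adhesion protein of myoblast fusion, sbb a nuclear cofactor, and tou a chromatin remodelling protein. The genes siz, tna and ush had 10 each. All qualifying sequence together had 0.884 peaks per 10 kb, and each of these genes was above that value. They were chosen for their number of peaks, so this is no separate result. The strongest peak of tou varied most among these genes in library rank, at 3507, 2752 and 661 in replicates 1, 3 and 4.

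Of 9115 protein-coding genes with any qualifying sequence, 1121 (12.3%) held a peak of the class. The share rose with the amount of qualifying sequence, from 0.902% of genes with under 1 kb to 19.8% at 1 to 5 kb, 39.2% at 5 to 10 kb and 55.6% above 10 kb. For this reason the lists are compared per 10 kb of qualifying sequence as well as by gene. The lists are descriptions, with no test. Some genes, such as ImpL2, sgg and lab, are on more than 1 list, so the lists are not independent of each other.

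In the EGF receptor pathway, which promotes vein formation in the wing, 15 of 23 genes (65.2%) held a peak, at 2.66 peaks per 10 kb. The gene edl, which encodes a regulator of ETS transcription factors, had the strongest, with signals of 335, 465 and 437 in replicates 1, 3 and 4 (pooled 1250). The receptor gene Egfr had 8 peaks, the strongest at 300, 296 and 236 (pooled 830). The kinase gene Raf had 5 peaks, the strongest at 151, 334 and 263 (pooled 770), and pnt, an ETS activator at the end of the pathway, had 6, led by 258, 281 and 239 (pooled 739). The inhibitor gene aos had 2 peaks, both recovered in all 3 libraries.

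In the BMP pathway, which carries the Dpp signal that also patterns wing veins, 14 of 18 genes (77.8%) held a peak, at 2.72 per 10 kb. Of the 50 peaks in this list, 16 were in shn, whose strongest had a pooled signal of 752. Among receptors, the type II receptor gene wit had a peak of 371, 540 and 453 in the 3 libraries (pooled 1278), the type I receptor gene tkv had 5 peaks, the strongest at 171, 245 and 217 (pooled 637), and put had 2. The glypican gene dlp, whose product spreads signals at the cell surface, had 4, all recovered in every library. Dad, an inhibitory Smad gene, had 2. In the JNK pathway 5 of 13 genes held a peak, at 2.84 per 10 kb, namely the kinase genes msn (4 peaks, strongest 424) and Tak1 (375), the AP-1 subunit gene kay (4 peaks, 362), the phosphatase gene puc (5 peaks, 264) and the receptor gene wgn (166). None of the 2 wgn peaks and 1 of the 5 puc peaks were recovered in all 3 libraries.

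Other signalling lists lay between these and the background. In the Notch pathway 8 of 16 genes held a peak, at 1.79 per 10 kb, led by neur and by mam, a co-activator gene with 8 peaks whose strongest had signals of 334, 356 and 380 (pooled 1062). In the Wingless pathway 8 of 18 genes did, at 1.96 per 10 kb. Among them were the receptor gene fz (strongest peak 746), the antagonist nkd (576) and Notum, an inhibitor gene with 5 peaks. The strongest nkd peak had no summit within 100 bp in replicate 3. In the Hedgehog pathway 3 of 11 genes held a peak, at 1.87 per 10 kb, and the receptor gene ptc had 4 peaks, all recovered in all 3 libraries. In the Hippo and Fat-Dachsous list 4 of 14 genes did, at 1.62 per 10 kb, with ex the strongest (908), followed by kibra (425) and the kinase gene wts (409). In the insulin and TOR list 5 of 18 genes did, at 1.49 per 10 kb. The strongest peak was in ImpL2 (1063), which is also on the ecdysone list, followed by the transcription factor gene foxo (779).

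Ecdysone is the steroid hormone that drives the change from larva to pupa. Of 19 genes in the ecdysone list, 14 (73.7%, exact 95% interval 48.8 to 90.9%) held a peak, at 1.67 per 10 kb. The median gene of this list had 12.3 kb of qualifying sequence. Of all protein-coding genes above 10 kb, 55.6% held a peak, a share inside that interval. ImpL2, which encodes an insulin-binding protein and was named for its induction by ecdysone, had a peak of 276, 432 and 343 in the 3 libraries (pooled 1063). The nuclear receptor genes Eip78C, Eip75B and Hr3 had 5, 7 and 5 peaks, the strongest at pooled signals of 972, 592 and 466. The receptor gene EcR had 4 peaks, 1 of them recovered in all 3 libraries.

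Several lists fell below the background of 0.884 peaks per 10 kb, though not all fell below the 12.3% of protein-coding genes that held a peak. Of the 25 wing and appendage selector genes, transcription factor genes that set the identity of the wing and limbs, only al and hth held a peak (8%), at 0.265 per 10 kb. Their strongest peaks were weak, at 200 and 173, and that of hth was not recovered in all 3 libraries. The gene net, also on this list although it is known for its part in wing veins, held none. Neuronal genes had 2 of 17 with a peak (0.136 per 10 kb), muscle genes 2 of 19 (0.284), tracheal genes 2 of 11 (0.281), midgut genes 3 of 8 (0.364), axon guidance and adhesion genes 12 of 29 (0.459) and Hox genes 4 of 8 (0.593). The median gene of the selector list had 4.08 kb of qualifying sequence, close to the 4.16 kb of the EGF receptor list. In the axon guidance list the median was 12.5 kb. Of its genes 41.4% held a peak (exact 95% interval 23.5 to 61.1%), against 55.6% of all protein-coding genes above 10 kb. Blood cell genes had 5 of 16 (1.77 per 10 kb, 10 of the 19 peaks in ush), clock genes 4 of 11 (1.65, led by vri at 863), fat body genes 3 of 8 (1.39, led by the lipid droplet gene Lsd-2 at 571) and bHLH genes and their partners 5 of 24 (1.25, led by the Max-network gene Mnt at 536).

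**Figure D4:**
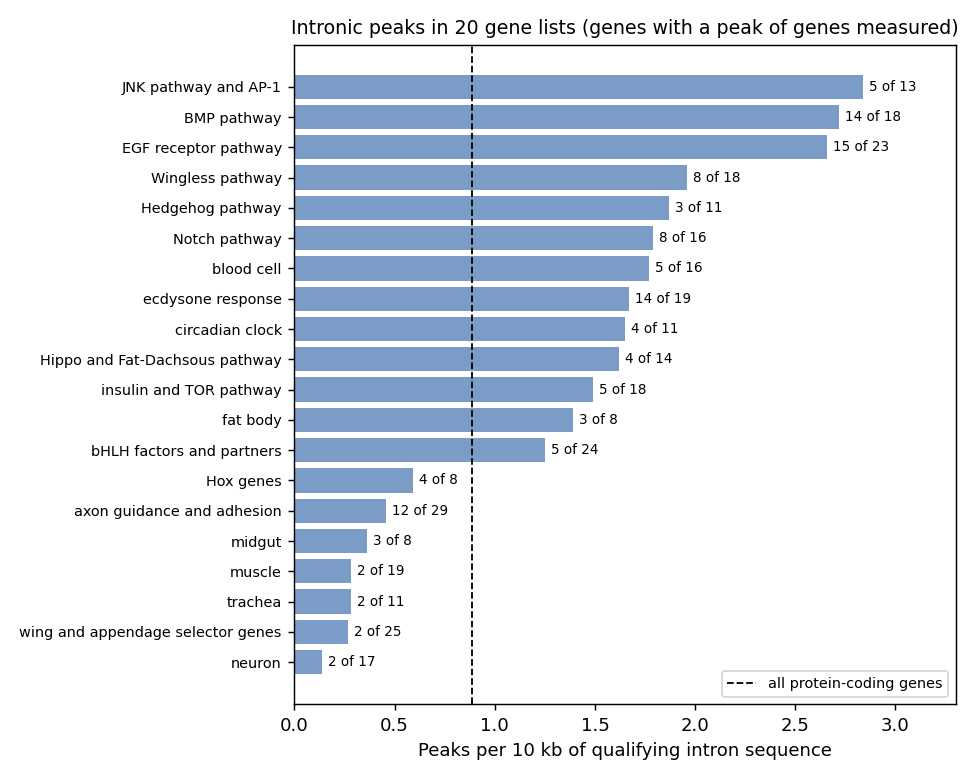
Intronic peaks per 10 kb of qualifying sequence in 20 gene lists (bars), with the number of genes holding a peak of those with qualifying sequence. The dashed line, labelled all protein-coding genes, is the value over all qualifying sequence, 0.884. The JNK, BMP and EGF receptor lists are the highest at 2.84, 2.72 and 2.66.

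The summits sat in a dip of GC content. Windows of 101 bp at the summits averaged 35.1% GC (SD 9.13 over 2162 peaks), against 44.1% in windows centred 250 bp to both sides and 39.6% in 242009 windows that tile the qualifying sequence. Measured at each library's own summits, GC was 35.4%, 36% and 34.7% in replicates 1, 3 and 4, and 44.1%, 44.1% and 44.2% in their flanks. The difference was -8.77 ± 0.679 percentage points (SD, n = 3), lower at the summit in 3 of 3 libraries (exact sign-flip p = 0.25). The dip was deeper for deeper intronic peaks, at 34.4% against 45.3% in flanks, and shallower for promoter peaks, at 39.3% against 42.9%. Within the class, split by signal into 4 equal parts, mean GC was 32.4% in the strongest part, 34.2% in the next, 35.8% in the one after and 37.9% in the weakest. The flanks stood above the tiling windows, so a GC-rich surround framed a GC-poor centre.

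E-boxes were not concentrated at the summits. A CANNTG match lay within 50 bp of the summit in 825 of the 2162 peaks (38.2%, exact 95% interval 36.1 to 40.2%), where 36.7% of all peaks in the list had one. The flanking windows had a match in 44.2% and the tiling windows in 40.4%. At the libraries' own summits the share was 37.7%, 38.5% and 37.1%, against 44%, 44.3% and 43.6% in flanks (difference -6.21 ± 0.357 percentage points, SD, n = 3, lower at the summit in 3 of 3 libraries, exact sign-flip p = 0.25). Against flanks 500 bp away the difference was -3.64 points, and for peaks above the list's median signal it was -10.5 against flanks 250 bp away. Peaks with an E-box had a median signal of 211 and those without one 240. In the strongest of 4 equal parts of the list, 32.8% of the class had a match.

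Because CANNTG holds both C and G, its frequency moves with GC content, and the shares were also set against tiling windows of similar GC. In windows of 30% GC or less, 27.7% of summits and 26.9% of tiling windows had a match. Over 30 to 40% GC the shares were 37.6% and 38.2%, over 40 to 50% they were 54.3% and 45.7%, and above 50% they were 50.6% and 48.7%. The summit shares were within counting error of the tiling windows except over 40 to 50% GC (exact 95% interval 49 to 59.5%).

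**Figure D5:**
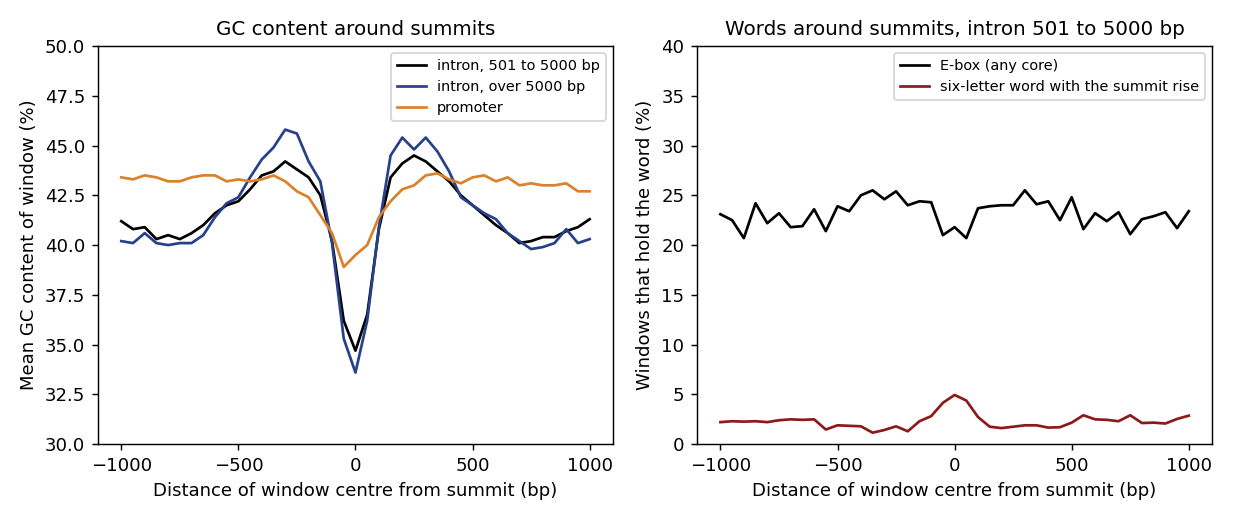
Left, mean GC content of 51 bp windows (y) by distance of their centre from the summit (x) for 3 peak classes. Right, share of the 2162 intronic peaks' windows with a CANNTG match (black) or with the word ATCTTA (red). GC falls to 34.7% at the summit of the class, the CANNTG share is 21.8% there, and the ATCTTA share peaks at 4.95%.

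Single E-box cores behaved differently from each other. CATATG was in 92 windows (4.26%), against 3.42% of flanks and 3.35% of tiling windows, and in 5.56% of the strongest part. At the libraries' own summits its excess over flanks was 0.707, -0.121 and 0.929 percentage points in replicates 1, 3 and 4, so its direction was not shared by all libraries (exact sign-flip p = 0.5). At similar GC, CATATG was in 4.22% of summits against 3.79% of tiling windows at 30% GC or less. The shares were 3.93% and 3.96% over 30 to 40%, 5.51% and 3.05% over 40 to 50%, and 3.49% and 1.96% above 50%. Only the interval over 40 to 50% GC (exact 95% interval 3.4 to 8.38%) lay above the tiling value. CAGCTG was in 94 windows (4.35%), below the 5.23% of flanks and above the 3.66% of tiling windows. At similar GC it was in 0.703% of summits against 0.864% of tiling windows at 30% GC or less and in 3.17% against 2.51% over 30 to 40% GC, both within counting error. It was in 10.2% of summits against 4.82% of tiling windows over 40 to 50% GC, and in 13.4% against 7.06% above 50% GC, where the exact 95% intervals of the summit shares (7.28 to 13.8% and 8.67 to 19.4%) lay above the tiling values. CACGTG, the core bound by many bHLH factors with a leucine zipper, was in 15 windows (0.694%), against 1.27% of flanks and 1.14% of tiling windows. CACCTG was in 46 (2.13%), against 3.42% and 3.36%. Neither CACGTG nor CACCTG was set against tiling windows of similar GC, so the part of GC content in these shares was not tested.

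Other words were more frequent at the summit than any E-box core relative to the flanks. ATCTTA, counted on both strands as were all words, was in 202 windows (9.34%, exact 95% interval 8.15 to 10.6%), against 3.35% of flanks and 5.17% of tiling windows. At the libraries' own summits it was in 8.49%, 8.82% and 9.44%, against 3.56%, 3.61% and 3.4% of flanks (difference 5.39 ± 0.578 percentage points, SD, n = 3, 3 of 3 libraries, exact sign-flip p = 0.25). TACTAA was in 6.43%, against 2.87% of flanks and 4.41% of tiling windows. Both words are rich in A and T, so both were also set against tiling windows of similar GC. ATCTTA was in 13.4% of summits against 10.3% of tiling windows at 30% GC or less (exact 95% interval 10.9 to 16.1%) and in 9.61% against 6.37% over 30 to 40% GC (7.78 to 11.7%). At higher GC, 4.13% and 2.33% of summits held it, and the intervals covered the tiling values of 3.08% and 1.27%. TACTAA was in 8.58% of summits against 9.14% of tiling windows at 30% GC or less, in 7.21% against 5.46% over 30 to 40% (exact 95% interval 5.62 to 9.08%), in 3.31% against 2.49% over 40 to 50%, and in 0 of 172 summits above 50% (exact 95% upper bound 2.12%), where 0.943% of tiling windows held it. Of these 4 bins only that over 30 to 40% GC had an interval above the tiling value. The share of ATCTTA in promoter peaks was 6.29% and in deeper intronic peaks 9.14%. TATCGATA, the site of the transcription factor DREF, was in 3 windows of the class (0.139%) and in 1.48% of promoter peaks. GAGAGA, a site of GAGA factor, was in 5.55%, between the tiling windows (3.88%) and the flanks (6.89%).

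When all six-letter words found in 50 or more of the peaks were set against tiling windows weighted to the same GC, 149 of 1323 words had a ratio above 1.25 and 70 a ratio under 0.8. These words were picked by that ratio, overlap one another and carry no test. The highest ratio, 2.35, was that of ACAGTG, in 168 peaks (7.77%), against 4.44% of flanks and 3.31% of the weighted tiling windows. It was in 6.61% of deeper intronic and 7.55% of promoter summits, so its share was similar outside the class. CAGTGC (2.05), GTGCAC (1.88), ACACTG (1.84) and AGTGCA (1.76) shared letters with it. A second family was rich in GA repeats, with AGAGAG at 2 and GAGAGA at 1.73, but flanks held both more often than summits did. CCAGCA had the lowest ratio of the words listed, 0.621, and was in 2.36% of summits against 6.31% of flanks.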

How the data were processed

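Anti-GFP ChIP-seq was done on whole prepupae in 3 libraries of 1 group. The authors deposited peak lists on dm6, with a signal per peak, a −log10 q-value per peak and the summit offset. Names of the alignment and peak-calling tools are not given in the sources used. Per the deposited file descriptions, the IDR list was derived from relaxed lists of 30000 peaks, 1 per library and 1 for the pooled reads. The signal was used to rank peaks within a list. The dm3 lists were not used, and depth is unknown.

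Summits were placed against Ensembl release 115 gene models on the dm6 genome, without transposable elements and pseudogenes (17947 genes and 23358 TSSs). A peak was recovered when a summit within 100 bp was among the 7571 strongest of a library. Ranks and each library's own summits came from the best-ranked summit within 100 bp in its whole relaxed list. Peaks without such a summit were left out of these values, in the class 112, 98 and 117 in replicates 1, 3 and 4. Shares have exact Clopper-Pearson and densities exact Poisson 95% intervals, which cover counting error only and treat peaks as independent. Differences were tested over the 3 libraries by the exact two-sided sign-flip permutation test. The labels call the libraries biological replicates and do not say from which animals each came. Words were sought on both strands in 101 bp windows, in flanks 250 bp away and in tiling windows. Python 3.11.15 with numpy 2.4.6, pandas 2.3.3 and scipy 1.17.1 was used, and the functions were tested on simulated data.

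The genes named were those holding the 25 strongest peaks, the 10 with most peaks (and ties), and for each of 20 lists up to 4 genes by strongest peak, with a few others added after their values were seen. Sequences were printed only for peaks outside arm 2R whose window touched no exon, and some items are not reported here. The class and the lists were chosen with earlier results of these data known.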

Additional observations from a re-analysis of the deposited data

How the results depend on the processing

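The limits are those of the lists: no read counts, no control library, 3 libraries pooled into the list they are compared with, and a sign-flip test whose smallest p is 0.25. Tests used differences within a library, and no pairing across groups applies with 1 group. Of 66 values under 15 alternatives, 57 kept their direction or, where no test applied, stayed within the replicate spread (counts within 1.5 times), 8 moved and 1 reversed. Among those that kept their direction, the E-box difference ranged from -10.5 points in the stronger part of the list to -3.62 within 25 bp, with -3.64 against flanks 500 bp away, the rank difference from deeper intronic peaks was -287 in the stronger part of the list, and the density difference by distance fell to 36.4 per Mb in the stronger part of the list, where fewer peaks were counted. The class share was 27.2% with TSSs of protein-coding genes only and 21.1% with the inner border at 1000 bp. With each library left out in turn, the pooled list stayed the same. Among its peaks recovered in both other libraries, the class share was between 28.6% and 29.6%. Recovery was 69.6% with matches within 50 bp, 85.2% within 200 bp and 95% in the whole relaxed lists. It was 84.5% in the stronger part of the list, above the median signal. For that value each library's list was cut to the same shorter length, a stricter rule than the one used for the 4 parts by signal. In the whole relaxed lists the difference in recovery from deeper intronic peaks was -0.447 points, against 2.27 as reported (exact sign-flip p = 0.5), and the cause was not tested. Protein-coding genes holding a peak numbered 736 in the stronger part of the list, where fewer peaks were counted.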
